A study of Mus musculus with 3 samples.

Results

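The 40 interferon-stimulated genes described here are transcripts that cells switch on when an interferon binds its receptor. They were taken by gene symbol from the 50686 genes of the count table, with no use of their values, and all 40 were found. The RNA came from BCR::ABL1+ Pre/Pro-B cell lines homozygous for Cdk6 K43M (Cdk6 KM/KM), in which CDK6 is present but kinase inactive. The lines had been grown from C57BL/6 mouse bone marrow cells after transduction with a retrovirus that carries BCR::ABL1 p185 and GFP, a model of B-cell acute lymphoblastic leukemia, and were cultured without any treatment named in the labels. The labels give 1 group of 3 samples, called lines 1, 2 and 3 below by their replicate number. All 3 lines share the mutation and the oncogene, so the values are levels in Cdk6 KM/KM cells and the spread between lines, and no genotype was compared. The labels do not say whether each line is from a separate mouse or how many founder cells it grew from. The age and sex of the donor mice are not given in the sources used here.

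As background, type I interferons signal through IFNAR1 and IFNAR2 and the kinases JAK1 and TYK2 to a transcription factor complex that contains IRF9 and binds the interferon-stimulated response element (ISRE) in target promoters. Type II interferon signals through IFNGR1 and IFNGR2, JAK1 and JAK2 to the gamma-activated site (GAS) of its target promoters. The targets include virus sensors, transcription factors that extend the response, effectors that block viral RNA and protein synthesis, and the immunoproteasome and peptide transporter that serve MHC class I. Many of these genes are also transcribed at a basal level in unstimulated lymphoid cells.

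Line 1 held 21569845 counts, line 2 held 19633463 and line 3 held 25773221, so 3 counts correspond to 0.138, 0.152 and 0.118 CPM (counts per 1000000 counts of the library, scaled with edgeR's TMM factors). Cdk6 RNA, which the K43M mutation does not remove, was present at 450, 334 and 239 CPM. Line 3 stood apart in the transcripts of the sex chromosomes. Xist had 18, 15 and 1350 counts in lines 1, 2 and 3, and Uty, Kdm5d and Eif2s3y together had 3347, 2228 and 6. The counts over gene groups are therefore also given without line 3, and single genes whose call ended without it are named. All 14 markers of B-lineage precursors passed the filter of at least 10 counts over the 3 lines, among them Pax5 (789, 849 and 805 CPM) and Igll1 (585, 657 and 542 CPM), as the cell type label has it. Of the markers of other cells, 4 of 8 for plasmacytoid dendritic cells (Siglech, Ccr9, Ly6c2 and Klk1), 6 of 10 for T and NK cells, 4 of 10 for myeloid cells, 4 of 8 for erythroid cells and megakaryocytes and 6 of 7 for stromal cells had no count in any line. The remaining plasmacytoid dendritic cell markers summed to 4.56, 2.94 and 4.12 CPM. Those of T and NK cells summed to 0.967, 0.912 and 1.10 CPM, and those of myeloid cells to 1.75, 2.08 and 4.04 CPM. For erythroid cells and megakaryocytes the sum was 2.81, 5.27 and 7.11 CPM. The remaining marker of the stromal list was higher, at 49.5, 80.2 and 99.7 CPM.

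Promoter sequence is shown first, as a trait of the genes that the choice by symbol did not read. RefSeq promoter windows (250 bases before to 50 from the start of the gene, build GRCm38.p6) were found for 30 of the 40 genes. No window was matched for Dhx58, Ifi27, Mx1, Mx2, Oas2, Parp14, Parp9, Rtp4, Usp18 and Zbp1. The ISRE core, searched as TTTC, 2 bases of any kind and TTTC again on both strands, was in a window of 14 of the 30 genes (46.7%) and of 3.99% of all 27025 genes with a window. The GAS, searched as TTCNNNGAA on both strands, was in a window of 9 of the 30 (30%) and of 9.55% of all genes. At least 1 of the motifs was in 19 of the 30, and both were in 4 (Bst2, Eif2ak2, Igtp and Oas1a). These matches are letters in a window and were not tested as binding sites.

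The following stretches run from 120 bases before the start to 30 bases from it, in the direction of the gene. Capitals mark ISRE core and GAS matches, and overlapping matches run together. The first 4 belong to the genes with a match that had the largest range between lines.
Isg15 (chr4:156200789-156200938, minus strand): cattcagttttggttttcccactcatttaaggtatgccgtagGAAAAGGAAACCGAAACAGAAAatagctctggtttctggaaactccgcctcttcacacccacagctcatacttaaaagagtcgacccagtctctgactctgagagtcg
Gbp2 (chr3:142620543-142620692, plus strand): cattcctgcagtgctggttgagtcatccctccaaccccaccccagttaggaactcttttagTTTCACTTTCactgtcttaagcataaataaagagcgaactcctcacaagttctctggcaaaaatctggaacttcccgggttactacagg
Isg20 (chr7:78913304-78913453, plus strand): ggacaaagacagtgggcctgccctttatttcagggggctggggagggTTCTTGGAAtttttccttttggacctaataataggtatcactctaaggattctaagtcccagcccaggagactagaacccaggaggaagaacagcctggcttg
Oas1a (chr5:120907496-120907645, minus strand): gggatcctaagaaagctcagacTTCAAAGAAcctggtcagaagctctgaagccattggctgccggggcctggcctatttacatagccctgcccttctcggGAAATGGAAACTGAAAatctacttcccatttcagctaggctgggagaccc
The stretch of Isg15 holds 3 overlapping ISRE cores, that of Gbp2 holds 1, that of Oas1a holds 2 and a GAS, and that of Isg20 holds a GAS alone. The next 4 belong to the genes with a match and the highest mean CPM, with no scaling by length, after those already shown.
Psmb8 (chr17:34198075-34198224, plus strand): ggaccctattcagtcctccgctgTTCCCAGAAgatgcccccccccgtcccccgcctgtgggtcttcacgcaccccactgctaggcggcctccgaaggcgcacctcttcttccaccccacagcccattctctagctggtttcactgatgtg
Gbp3 (chr3:142559924-142560073, plus strand): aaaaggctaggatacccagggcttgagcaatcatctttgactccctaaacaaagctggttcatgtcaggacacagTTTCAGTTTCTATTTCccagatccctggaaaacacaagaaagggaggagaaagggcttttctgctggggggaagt
Eif2ak2 (chr17:78882543-78882692, minus strand): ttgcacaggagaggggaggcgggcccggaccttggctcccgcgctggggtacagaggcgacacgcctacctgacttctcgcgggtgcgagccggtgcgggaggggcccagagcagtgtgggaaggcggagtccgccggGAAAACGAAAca
Irgm1 (chr11:48871391-48871540, minus strand): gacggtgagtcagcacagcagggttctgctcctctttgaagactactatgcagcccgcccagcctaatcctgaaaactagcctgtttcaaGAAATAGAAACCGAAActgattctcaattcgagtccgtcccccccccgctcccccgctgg
The RefSeq start of Psmb8 lies inside the gene as Gencode annotates it (from base 34197721), and its window holds no Gencode start. Psmb8 holds a GAS, Gbp3 and Irgm1 each hold 2 overlapping ISRE cores, and Eif2ak2 holds an ISRE core downstream of its start, while its GAS lies further upstream than the stretch reaches. By level, among genes with a mean under 5 CPM the ISRE core was in 7 of 13 windows and the GAS in 1 of 13. Among genes at 5 CPM or more the ISRE core was in 7 of 17 and the GAS in 8 of 17, namely Bst2, Eif2ak2, Ifi35, Ifit2, Igtp, Irf1, Isg20 and Psmb8, a difference that was not tested.

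Basal levels spanned a wide range. Together the 40 genes took 1392, 1508 and 1411 CPM in lines 1, 2 and 3, which is 0.140%, 0.152% and 0.139% of all counts. Of the 40, 24 reached at least 1 CPM in every line, 21 had a mean of at least 5 CPM, and 39 passed the filter of at least 10 counts over the lines, which 13974 genes passed in all. Ifi44 did not pass, with 0, 6 and 0 counts. In these bulk samples, fewer cells that express a gene and less RNA per cell cannot be told apart. The levels ran on without a clear break, and 5 CPM was set as a division after the values were seen, with Dhx58 (6.72 CPM) as the last of 21 genes above it and Xaf1 (4.32 CPM) as the first of 19 below. Only 25 of the 40 genes had at least 10 counts in every line, so the other 15, all under 5 CPM, rest on fewer counts in 1 line or more.

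**Figure D1:**
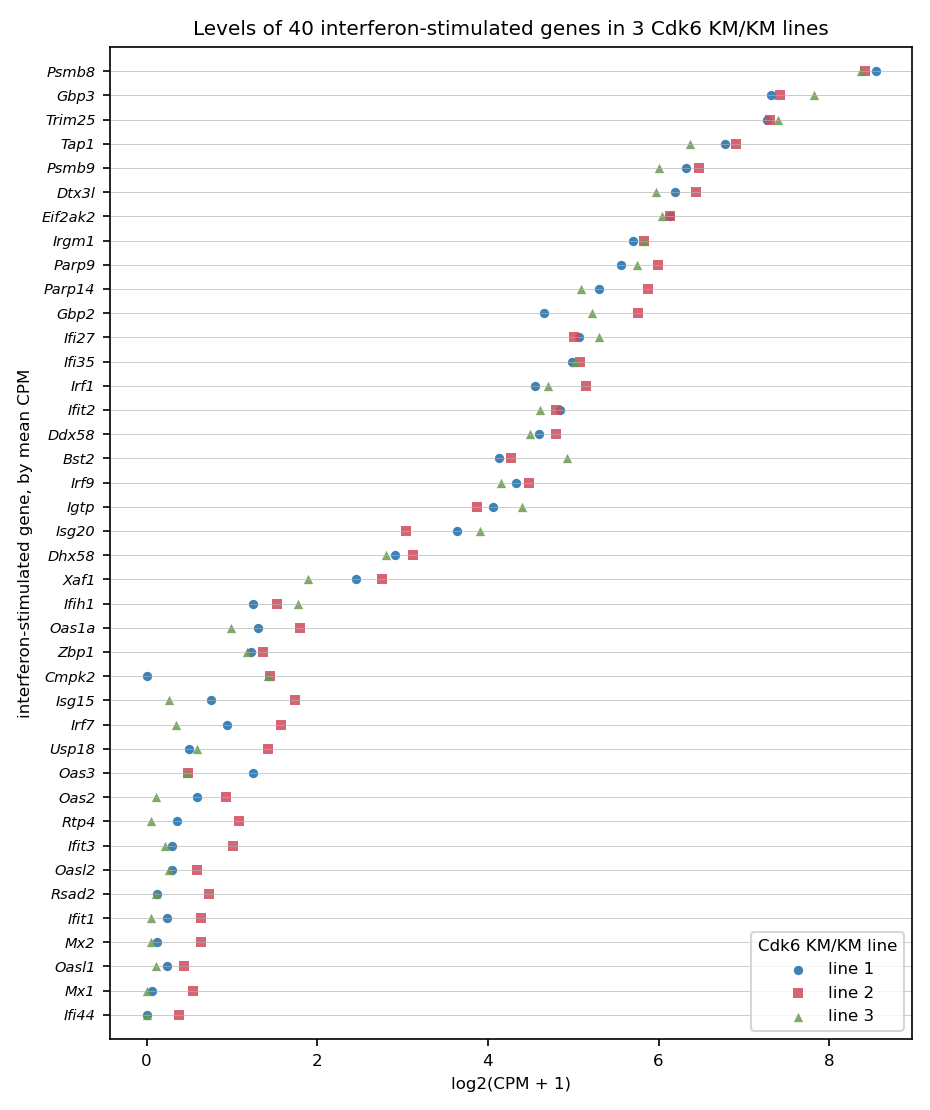
Level of each of the 40 interferon-stimulated genes as log2(CPM + 1) on the x axis, with 1 point for each of the 3 Cdk6 KM/KM lines and genes ordered by mean CPM on the y axis. Levels in this plot are not scaled by gene length, and among the genes in the lower part the squares of line 2 lie mostly to the right of lines 1 and 3.

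Across the set, 32 of the 39 genes that passed the filter (82.1%) differed between the libraries beyond counting noise at an adjusted p under 0.05, against 66.8% of all 13974 genes. This test compares the 3 libraries and says nothing of a condition, and a gene with more counts is called more easily. At 5 CPM or more, 18 of 21 genes of the set (85.7%) were called, against 80.1% of all genes at that level. Under 5 CPM it was 14 of 18 (77.8%) against 39.7%, with genes among the 18 that passed the filter only through line 2. The 7 not called were Eif2ak2, Ifi35, Dhx58, Ifih1, Zbp1, Oasl2 and Oasl1. A range of at least 2-fold on the log2(CPM + 1) scale was reached by 5 of the 39 (12.8%), namely Isg15, Cmpk2, Irf7, Gbp2 and Rtp4, against 10.9% of all genes, so that share was near the background. All 5 were highest in line 2, and 2.77% of all genes had a range that wide with line 2 highest. Of the 5, Rtp4 passed the filter only through line 2. For Cmpk2, lines 2 and 3 were at 1.72 and 1.69 CPM, a ratio of 1.02 (exact 95% counting interval 0.631 to 1.64, with intervals of ratios given the same way below). Without line 1, 2 or 3, a 2-fold range was reached by 3 of 37, 1 of 32 and 2 of 39 genes of the set. The shares over all genes were 7.22%, 7.34% and 4.79%. With a pseudocount of 0.1 CPM in place of 1 CPM 17 of the 39 reached it, against 22.8% of all genes. The median SD of the 39 genes on the log2(CPM + 1) scale was 0.28 against 0.17 for all genes. Without line 3, 21 of the 39 genes (53.8%) were called, as against 47.1% of all genes. The 11 genes whose call ended were Ifit1, Ifit2, Ifi27, Ddx58, Irf9, Oas2, Bst2, Xaf1, Trim25, Igtp and Irgm1. In that comparison, 10 of 21 genes of the set at 5 CPM or more were called (47.6%), below the 55.1% of all genes at that level. Under 5 CPM it was 11 of 18 (61.1%) against 26.0%, again with genes that passed the filter only through line 2. Without line 2, 32 genes of the set passed the filter and 22 were called, against 54.5% of all genes. The calls of Ddx58, Irf1, Irf9, Oas1a, Usp18 and Irgm1 ended. Ifit1, Ifit3, Mx1, Mx2, Rsad2 and Rtp4, called with all 3 lines, no longer passed the filter. Without line 1, 37 passed and 28 were called, against 54.3% of all genes. The calls of Oas3, Cmpk2, Psmb8 and Irgm1 ended, and Mx1 no longer passed the filter.

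The direction was less even than the size. Line 2 was the highest line for 28 of the 39 genes (71.8%), line 3 for 8 and line 1 for 3 (Psmb8, Ifit2 and Oas3). Over all genes that passed the filter, 31.7% were highest in line 2. Without the counts of line 2, 32 of the 39 genes passed the filter. The others (Ifit1, Ifit3, Mx1, Mx2, Oasl1, Rsad2 and Rtp4) passed only through line 2 and are all among the 28. The median deviation of the 39 genes from their own mean over the lines on the log2(CPM + 1) scale was -0.06 for line 1, 0.21 for line 2 and -0.14 for line 3, and over all genes it was -0.012, -0.0019 and 0.0025. Line 2 had the smallest of the 3 libraries. Without line 3, 32 of 39 genes were higher in line 2 than in line 1, against 50.7% of all genes. Without line 1, 29 of 37 were higher in line 2 than in line 3, against 50.0%. Without line 2, the median deviation was 0.04 for line 1 and -0.04 for line 3. Where each line had to reach 10 counts on its own, 14 of the 25 genes left were highest in line 2, against 31.5% of all genes that met that filter.

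**Figure D2:**
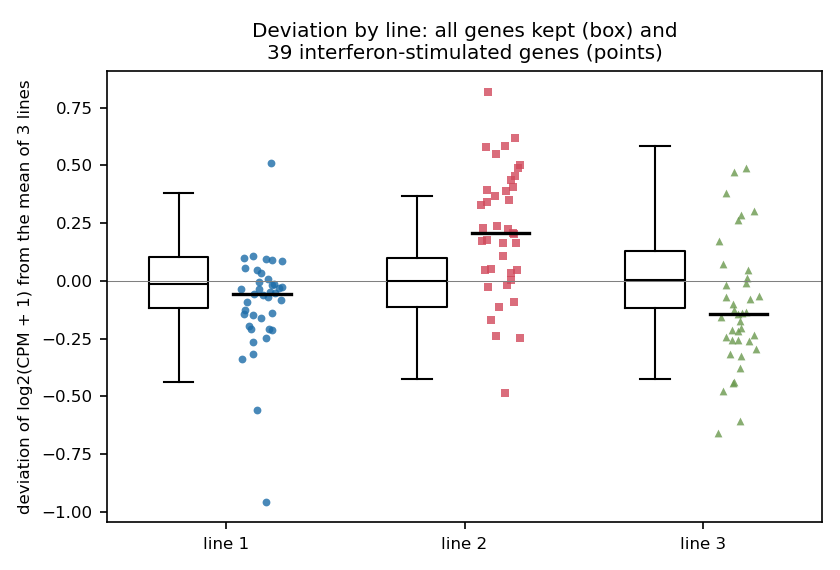
Deviation of log2(CPM + 1) from the mean of the 3 lines on the y axis, by Cdk6 KM/KM line on the x axis. Boxes give the median, quartiles and 5th to 95th percentiles of all 13974 genes, points are the 39 interferon-stimulated genes, and the thick bar is their median, which is 0.21 in line 2 and below 0 in lines 1 and 3.

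Among the genes that passed the filter, line 2 was the highest line for a larger share of those at low level. Of the 18 genes with a mean under 5 CPM that passed the filter, 16 were highest in line 2 (88.9%), against 30.2% of all genes at that level. The exceptions were Oas3 in line 1 and Ifih1 in line 3. The median deviation of the 18 genes was -0.11, 0.39 and -0.25 in lines 1, 2 and 3. All 19 genes under 5 CPM, Ifi44 included, summed to 13.9, 26.2 and 11.1 CPM. Of the 21 genes at 5 CPM or more, 12 were highest in line 2 (57.1%) against 32.4% of all genes at that level, and their median deviation was -0.04, 0.05 and -0.06. These 21 genes summed to 1378, 1481 and 1399 CPM, so their excess in line 2 was small as a fold and large in CPM. Without line 3, 17 of the 18 genes under 5 CPM were higher in line 2 than in line 1 (47.8% of all genes at that level) and 15 of the 21 at 5 CPM or more (51.8%). A gene with few counts passed the filter more easily where 1 line was high, so the share among the low genes describes those that passed. The 16, the median deviation of the 18 and the sum of the 19 include the genes named above that passed only through line 2. These values therefore do not show the direction of the low genes apart from the filter. No difference between the low and the high genes was tested.

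**Figure D3:**
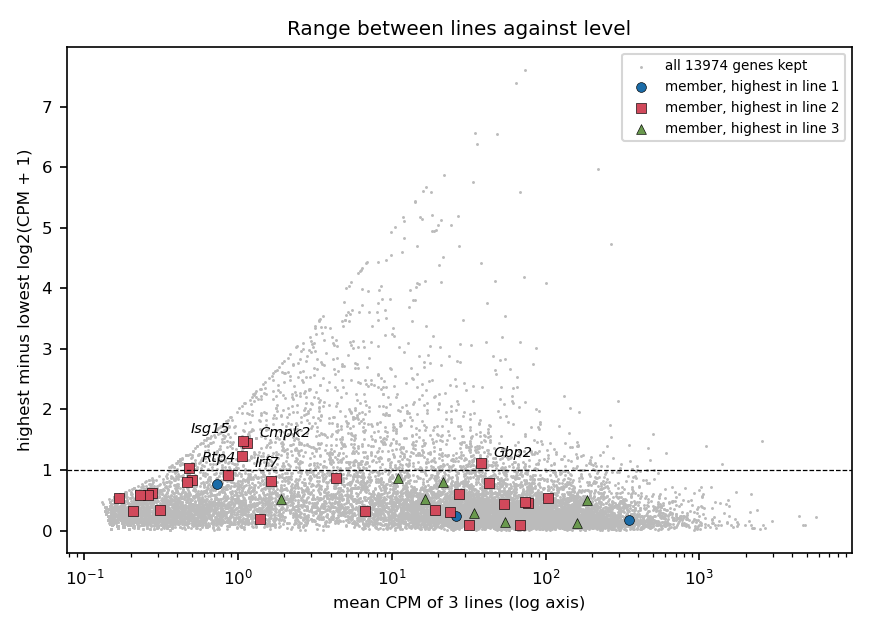
Highest minus lowest log2(CPM + 1) of the 3 lines on the y axis against mean CPM on a log x axis, for all 13974 genes (grey) and the 39 interferon-stimulated genes (marked by the line in which each was highest). The dashed line is a 2-fold range, above which lie Isg15, Cmpk2, Irf7, Gbp2 and Rtp4.

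Psmb8, a catalytic subunit of the immunoproteasome, was at 372, 341 and 331 CPM in lines 1, 2 and 3, with a mean of 348 ± 21.2 CPM (SD, n = 3 here and below). Per kilobase of merged exon, the scale on which genes are compared here, it was the highest of the 40 genes at 103 ± 6.28 CPM, above 97.2% of the genes that passed the filter. Gm20496 overlaps 14.7% of the Psmb8 exon length on the other strand, which leaves the origin of reads there uncertain. Psmb9, another subunit of the same proteasome, was at 79.0, 87.7 and 63.4 CPM. Tap1, part of the transporter that carries peptides into the endoplasmic reticulum, was at 109, 119 and 81.5 CPM. All 3 genes lie on chromosome 17, and Psmb9 and Tap1 are divergent neighbors whose exons overlap on opposite strands over 5.79% of the Psmb9 exon length, so reads there cannot be assigned with certainty. For Tap1 and Psmb9 line 3 was lowest and line 2 highest, whereas Psmb8 was highest in line 1, 1.12-fold above line 3.

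Among the interferon-inducible GTPases, which attack the vacuoles of intracellular microbes, Gbp3 was at 158, 171 and 225 CPM and stood next after Psmb8 per kilobase, at 56.5 ± 10.9 CPM. Its line 3 value was 1.42-fold the line 1 value (1.36 to 1.49). Gbp2 was at 24.1, 53.3 and 36.4 CPM, lowest in line 1 and highest in line 2, a ratio of 2.21 between those lines (1.99 to 2.46). Gbp2 was thus the only gene with a mean of at least 5 CPM whose range reached 2-fold. Irgm1 was at 50.8, 56.0 and 56.1 CPM, and Igtp, also called Irgm3, was at 15.7, 13.6 and 20 CPM. Lines 2 and 3 lay together for Irgm1, and for Igtp line 3 lay apart from line 2. Of the 4 GTPases only Gbp2 was highest in line 2. Igtp overlaps Irgm2 in 8.01% of its exon length, and 12.3% of its 50-base stretches also occur in Irgm2.

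Among the PARP and E3 ligase genes, Trim25, the ubiquitin ligase that acts with the sensor RIG-I, was at 153, 157 and 167 CPM and had a range of 0.13 on the log2(CPM + 1) scale. Parp9 and Dtx3l, whose proteins form a complex that ADP-ribosylates and ubiquitinates, were at 46.0, 62.9 and 52.8 CPM and at 72.4, 85.8 and 61.5 CPM. Both were highest in line 2, and their exons overlap on opposite strands over 9.40% of the Parp9 exon length. Parp14, a mono-ADP-ribosyltransferase, was at 38.3, 57.8 and 33.2 CPM. Its line 2 value was 1.51-fold that of line 1 (1.38 to 1.65) and 1.74-fold that of line 3 (1.59 to 1.90). Parp9, Dtx3l and Parp14 lie on chromosome 16, where the other genes deviated from their mean by a median of 0.02 in line 2 on the log2 scale.

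The RNA sensors stood at separate levels. Ddx58, which encodes RIG-I, was at 23.3, 26.8 and 21.6 CPM. Ifih1, which encodes MDA5, was at 1.38, 1.87 and 2.43 CPM. Dhx58, which encodes LGP2, was at 6.5, 7.70 and 5.97 CPM, and Zbp1, a sensor of Z-form nucleic acid, was at 1.34, 1.57 and 1.26 CPM. Per kilobase, Ddx58 stood at 3.39 ± 0.379 CPM, Dhx58 at 2.05 ± 0.271, Zbp1 at 0.393 ± 0.0463 and Ifih1 at 0.232 ± 0.0645. With all 3 libraries, Ddx58 was called as different between them by the chi-square test, its widest ratio being 1.24. Dhx58, Zbp1 and Ifih1 were not called. These outcomes depended on the lines used. The call of Ddx58 ended without line 3 or without line 2, while Dhx58 was called without line 1 and Ifih1 was called without line 2. The ratio of Ifih1 between line 3 and line 1 was 1.76, with a counting interval of 1.12 to 2.82, on 62 and 30 counts.

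All 3 transcription factors were highest in line 2. Irf1, a transcription factor of the response to both types of interferon, was at 22.5, 34.5 and 25 CPM, and line 2 exceeded line 1 by 1.54-fold (1.37 to 1.73) and line 3 by 1.38-fold (1.24 to 1.54). Irf9, a DNA-binding subunit of the complex that binds the ISRE, was at 19.2, 21.4 and 16.8 CPM. Irf7, the factor that amplifies type I interferon production, had 20, 39 and 7 counts, or 0.921, 1.98 and 0.275 CPM. The line 2 value of Irf7 was 2.14-fold that of line 1 (1.22 to 3.88) and 7.19-fold that of line 3 (3.18 to 19.0). Irf7 was far below Irf1 and Irf9 also per kilobase, at 0.280 ± 0.227 CPM against 6.88 ± 1.6 and 3.55 ± 0.433.

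Isg15, the ubiquitin-like modifier that is attached to other proteins during the response, had 15, 46 and 5 counts in lines 1, 2 and 3, or 0.691, 2.33 and 0.196 CPM. It had the widest range of the 40 genes, 1.48 on the log2(CPM + 1) scale. The line 2 value exceeded line 1 by 3.37-fold (1.85 to 6.5) and line 3 by 11.9-fold (4.74 to 38.3). Usp18, the protease that removes ISG15 and also dampens receptor signaling, had 9, 33 and 13 counts. Its line 2 value was 4.03-fold that of line 1 (1.89 to 9.58) and 3.28-fold that of line 3 (1.68 to 6.78). Below line 2, the line 3 to line 1 ratio was 0.284 for Isg15 (0.0808 to 0.822) and 1.23 for Usp18 (0.487 to 3.26), so the order of lines 1 and 3 was resolved for Isg15 and not for Usp18.

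The IFIT family, which binds foreign RNA and blocks its translation, was split. Ifit2 had 601, 531 and 597 counts, or 27.7, 26.9 and 23.4 CPM. Ifit1 had 4, 11 and 1 counts, and Ifit3 had 5, 20 and 4. On the per-kilobase scale Ifit2 was at 6.62 ± 0.576 CPM, Ifit3 at 0.268 ± 0.272 and Ifit1 at 0.0980 ± 0.101, although the 3 genes lie together on chromosome 19. Ifit1 and Ifit3 were highest in line 2, and Ifit2 was highest in line 1. Of the 50-base stretches of Ifit3, 51.2% also occur in its near copy Ifit3b, so its level is uncertain.

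The genes of the 2-5A synthetase family, whose active enzymes make the activator of RNase L, all had a mean under 5 CPM. Oas1a had 32, 49 and 25 counts, Oas2 had 11, 18 and 2, and Oas3 had 30, 8 and 10. Oas3 was the exception in the family, highest in line 1, at 1.38 CPM against 0.405 and 0.393 CPM. Oasl1 had 4, 7 and 2 counts and Oasl2 had 5, 10 and 5, and neither was called as different between the libraries. All 5 genes lie on chromosome 5, the chromosome whose other genes deviated most among the 13 that hold the set, the median deviation for lines 1, 2 and 3 being 0.23, -0.06 and -0.16 over its other 953 genes. For Oas1a, 57.6% of its 50-base stretches also occur in Oas1g or Oas1b. The dynamin-like GTPases that trap viral particles were close to the floor. Mx1 had 1, 9 and 0 counts, and Mx2 had 2, 11 and 1. Mx1 was at least 3.87-fold higher in line 2 than in line 3, taking 3 counts as the floor of line 3, and the exact 95% lower limit of that ratio was 2.55. C57BL/6 mice carry a defective Mx1 allele.

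The remaining effectors divided in the same way by level. Eif2ak2, which encodes the RNA-activated kinase PKR, was at 69.5, 69.5 and 64.9 CPM. It was not called as different between the libraries, its line 2 to line 3 ratio being 1.07 (0.996 to 1.15). Bst2, the membrane tether tetherin, was at 16.4, 18.3 and 29.5 CPM, higher in line 3 than in line 1 by 1.80-fold (1.58 to 2.04), while the line 2 to line 1 ratio was 1.11 (0.961 to 1.29). Isg20, an exonuclease, was at 11.4, 7.24 and 14 CPM and was the gene at 5 CPM or more that stood lowest in line 2 relative to the others. Its line 2 value was 0.517 of the line 3 value (0.423 to 0.629). Rsad2, which encodes viperin, had 2, 13 and 2 counts. Cmpk2, a mitochondrial nucleotide kinase next to Rsad2 on chromosome 12, had 0, 34 and 43 counts. Cmpk2 was at least 12.46-fold higher in line 2 and at least 12.21-fold higher in line 3 than the 3-count floor of line 1, and the exact 95% lower limits of these ratios were 9.59 and 9.51. The 2 neighbors thus shared a low count in line 1 and parted in line 3.

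Of the other genes, Ifi27, whose product sits in mitochondria, was at 32.5, 31.3 and 38.4 CPM. Ifi35 was at 30.8, 32.7 and 31.4 CPM, with the narrowest range of the 39 genes, 0.08 on the log2(CPM + 1) scale, and 16.8% of its exon length is overlapped on the other strand. Xaf1, a pro-apoptotic factor, was at 4.47, 5.77 and 2.71 CPM, 2.13-fold higher in line 2 than in line 3 (1.57 to 2.92). Rtp4, a receptor transporter, had 6, 22 and 1 counts. Its line 2 value was 4.03-fold that of line 1 (1.59 to 12.2), and 13.9% of its exon length is shared with Gm45338.

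The interferons themselves were near absent from the counts. Of 21 interferon genes, 19 had no count in any line, namely Ifnb1, Ifng, Ifne, Ifnk, Ifnl2, Ifnl3 and 13 Ifna genes. The exceptions were Ifnab with 2 counts in line 3 and Ifnz with 1 count in line 1. A count of 0 leaves room for up to 3 counts, 0.152 CPM in line 2. The receptors and signal transducers were expressed, and 11 of 12 differed between the libraries. That stands against 66.8% of all genes and 80.1% of all genes at 5 CPM or more. Ifnar1, a subunit of the type I receptor, was at 61.3, 83.4 and 73.2 CPM, and its partner Ifnar2 was at 25.8, 28.3 and 24.3 CPM. Ifngr1, the ligand-binding subunit for type II interferon, was at 51.5, 61.4 and 98.1 CPM, highest in line 3. Jak1 was at 371, 338 and 395 CPM, and Tyk2 at 48.9, 50.9 and 49.1 CPM was not called as different. Stat2, a transducer of the type I signal, was at 31.4, 39.7 and 33.1 CPM. Ifnlr1, the type III interferon receptor, had 2, 36 and 1 counts and was the member of this list with a 2-fold range. It passed the filter only through line 2 and is counted among the genes called and those highest in line 2. Stat3, also of this list, was at 76.1, 71.6 and 110 CPM, highest in line 3 and lowest in line 2. In total 7 of the 12 were highest in line 2, against 31.7% of all genes, 5 were highest in line 3, against 37.0%, and none in line 1. Without line 3, 7 of the 12 were called (58.3%), against 47.1% of all genes and 55.1% of those at 5 CPM or more. In that comparison 10 were higher in line 2 than in line 1, Ifnlr1 included, against 50.7% of all genes.

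The other lists of the pathway varied in their order of lines. Their counts stand against 66.8% of all genes that differed between the libraries, or 80.1% of all genes at 5 CPM or more. For the highest line they stand against 31.7% of all genes in line 2 and 31.2% in line 1. Of 11 negative regulators that passed the filter, 10 differed between the libraries and 4 were highest in line 2, and Socs3, an inhibitor of JAK kinases, was at 46.0, 46.5 and 30 CPM. Of 12 nucleic acid sensors and adaptors, 10 differed and 4 were highest in line 2. Tmem173, which encodes STING, was at 129, 118 and 179 CPM, and Mb21d1, which encodes the DNA sensor cGAS, was at 2.26, 0.760 and 3.22 CPM, lowest in line 2. All 7 genes that passed from the list of other interferon regulatory factors, which includes the IRF2 partner Irf2bp2, differed and 1 was highest in line 2, while Irf8 was at 300.5, 223.6 and 252.5 CPM. Of 12 genes of the MHC class I pathway, 11 differed and 7 were highest in line 1, though B2m, its light chain, was at 533, 693 and 516 CPM and H2-D1, a heavy chain, at 395, 488 and 262 CPM, both highest in line 2. Without line 3, the genes higher in line 2 than in line 1 were 7 of 11 negative regulators, 5 of 11 sensors and adaptors, 5 of 7 other regulatory factors and 4 of 12 genes of the MHC class I pathway, against 50.7% of all genes.

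**Figure D4:**
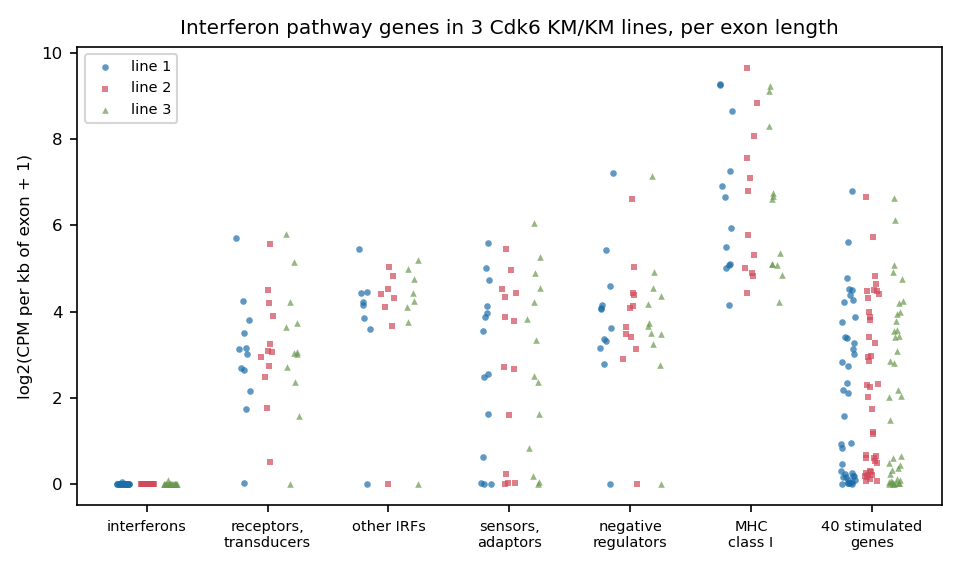
Level per gene as log2(CPM per kb of merged exon + 1) on the y axis for 6 lists of the interferon pathway and the 40 interferon-stimulated genes, with 1 point per gene and line. All interferon genes lie at or next to 0 in the 3 lines, while most receptors, transducers and MHC class I genes lie well above it.

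A second list of 42 genes also known to respond to interferon gave 39 that passed the filter, of which 30 differed between the libraries (76.9%), 7 had a 2-fold range (17.9%) and 20 were highest in line 2 (51.3%). The shares over all genes were 66.8%, 10.9% and 31.7%. Without line 3, 27 of 37 were higher in line 2 than in line 1, against 50.7%. Lgals3bp, a secreted galectin-binding protein, had 46, 157 and 41 counts, highest in line 2. Gbp7 was at 281, 418 and 373 CPM, and Pml, a nuclear body scaffold, at 108, 150 and 145 CPM. Ifitm1, an inhibitor of virus entry, was at 49.7, 52.2 and 164 CPM and Slfn5 at 2.12, 6.03 and 11.1 CPM, both highest in line 3. The median deviation of this list was -0.08, 0.08 and -0.04.

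Most markers of B-lineage precursors were also highest in line 2. These were 10 of the 14 (71.4%), against 31.7% of all genes, and the sum of the 14 was 4435, 5171 and 4715 CPM in lines 1, 2 and 3, and none was at 0. Rag1, which cuts the antigen receptor loci, was at 22.4, 91.4 and 32.4 CPM, and its partner Rag2 was at 12.4, 31.8 and 11.0 CPM, the widest ranges in that list. The 4 others were highest in line 3, among them Dntt, the polymerase that adds untemplated bases at antigen receptor joints, at 0.967, 1.62 and 4.28 CPM, Blnk, a receptor adaptor, at 197, 262 and 293 CPM, and Vpreb2, which was lowest in line 2 at 278, 246 and 289 CPM. Without line 3, 13 of the 14 were higher in line 2 than in line 1, against 50.7% of all genes. Whether the state of the cells that these markers follow had a part in the order of the interferon-stimulated genes was not tested. After the median of each chromosome's genes was subtracted line by line, line 2 was still the highest for 27 of the 39 interferon-stimulated genes, and their median deviation there was 0.21.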

How the data were processed

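Poly(A) RNA of 3 Cdk6 KM/KM cell lines had been sequenced, as single-end reads of a SENSE mRNA library per the labels, whereas the study's methods name a TruSeq kit, so that the strandedness of the reads is unsure. The deposited values are raw counts per gene, made by the authors with Trimmomatic 0.36, STAR 2.7.6a on GRCm38/mm10 and featureCounts on exons of Gencode M13. The strand setting of the counting is not given in the sources used here. Another 6 sample columns of the table were not used. Counts were scaled with edgeR 4.0.16 (TMM) in R 4.3.3 to CPM, and levels were compared on the log2(CPM + 1) scale. A gene needed 10 counts in all over the 3 lines to be kept. Levels per kilobase used merged exons of a Gencode annotation of the same assembly, matched by Ensembl ID for 50376 of 50686 genes. Libraries were compared gene by gene with a chi-square test of homogeneity against effective library sizes, with Benjamini-Hochberg adjustment over all genes kept, in Python 3.11.15 (scipy 1.17.1). It was tested on simulated data. Ratios between lines carry exact 95% binomial intervals, which cover counting error only.

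Nothing in the labels says that the lines are independent cultures from separate mice, so the spread between them may be partly technical. All 40 genes are named, and from every other list up to 4 genes with the highest mean and up to 3 with the widest range at a mean of at least 1 CPM could be named. Ifnar2, Tyk2, Stat2 and Ifnlr1 fall outside that rule and were named after their values were seen, and each was highest in line 2. Of all listed genes, 1 was matched through a RefSeq synonym. The genes and lists were chosen with earlier results of these data known. The division at 5 CPM, the count of genes highest in line 2, the grouping by role, the exact multinomial test and the choice and length of the promoter stretches were set after the values were seen. The results were recomputed with size factors from DESeq2 1.42.0, with plain library size, with other filters, with a pseudocount of 0.1 CPM, after subtraction of the chromosome median, and leaving out each line. The counts per list without line 3 were added after the values were seen.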

Additional observations from a re-analysis of the deposited data

How the results depend on the processing

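With 3 lines of 1 group, the values describe these lines, and genes of a few counts carry wide counting intervals. No paired analysis was possible because the labels give 1 group. The number of interferon-stimulated genes that differed between the libraries was 32, and it was 21 of the 25 genes kept under a filter of at least 10 counts in every line, where fewer genes could be called (74.6% of all genes), and between 21 and 28 with 1 line left out (lowest without line 3, with 47.1% to 54.5% of all genes). The exact multinomial test, chosen after seeing the data, also called 32. The number with a range of at least 2-fold was 5, and it was 1 of 25 with that filter (9.91% of all genes). It was 17 with a pseudocount of 0.1 CPM (22.8% of all genes). With a line left out it was between 1 and 3 (1 without line 2), with 4.79% to 7.34% of all genes. Genes highest in line 2 numbered 14 of 25 with that filter (31.5% of all genes), and 27 to 29 with the other scalings, no filter, the other pseudocount or the chromosome median subtracted. The median SD was between 0.176 and 0.328 with a line left out, lowest without line 2. The median deviation of line 2 was between 0.11 and 0.23 under every setting that kept that line. That of line 1 was 0.04 without line 2, above 0 where it had been below. DESeq2 size factors ended the call of 1 gene (Irgm1), and plain library size ended the same 1 and added Eif2ak2. The filter on every line added Ifih1. Leaving out line 1, 2 or 3 left 37, 32 and 39 genes of the set past the 10-count filter. Among these, 4, 6 and 11 calls ended and 1, 2 and 0 were added. Further called genes no longer passed the filter, namely Mx1 without line 1 and Ifit1, Ifit3, Mx1, Mx2, Rsad2 and Rtp4 without line 2.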
